A study of Mus musculus with 8 samples.

Results

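The genes described here encode the subunits of the voltage-gated calcium and sodium channels. They were taken by symbol, as every protein-coding gene whose name begins with Cacna, Cacnb or Cacng, or with Scn, a number and a or b. The rule found 40 of the 54752 genes in the count tables, 26 for calcium channels and 14 for sodium channels. The rule used no measured value, although the channel genes were chosen with earlier results of these data known. Of the 40, 37 had enough reads to be tested.

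RNA was sequenced from the brains of wild type C57BL/6 mouse fetuses (C57BL/6Slac in the study's methods) at E15.5, taken with forebrain, midbrain and hindbrain together, and 4 stress brains were compared with 4 control brains to ask how stress of the pregnant mother changes transcription in the fetal brain. In the stress group the dam went through chronic unpredictable mild stress during pregnancy, whereas the dams of the control group were left unstressed. Each group held 2 females (control F36 and F37, stress F34 and F35) and 2 males (control M30 and M31, stress M28 and M29). The study's sample sheet places all 4 control brains in a single litter and all 4 stress brains in another, which means that an effect of stress and one of litter cannot be told apart here, and the p-values measure only the spread among littermates. The sheet also describes the tissue of each library as a portion of the whole brain. All values below are listed in the order F36, F37, M30 and M31 for control and F34, F35, M28 and M29 for stress.

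A voltage-gated channel opens when the membrane is depolarised. Its large pore-forming alpha subunit sets which ion passes and at which voltage, and smaller auxiliary subunits control how much channel reaches the surface and how fast it gates. Calcium channels fall into the L, P/Q, N and R types, which need strong depolarisation, and the T type, which opens near rest, and they are joined by alpha2delta and beta subunits. Several products of the gamma genes, the TARPs, mainly carry AMPA-type glutamate receptors to the synapse and are grouped into type I and type II. Sodium channel alpha subunits carry the rising phase of the action potential, while their beta subunits are adhesion proteins of the membrane.

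Libraries held 25320109 to 29105710 counted read pairs, with 26944 to 27366 genes detected and 2.1% to 2.31% of counts on mitochondrial genes, and every pair of libraries within a group differed by more than sampling noise (chi-square per gene 1.99 to 6.28). The channel genes together took 0.291% to 0.297% of all counts in control and 0.267% to 0.282% in stress, and these ranges did not overlap. Stress F34 and stress M28 stood apart in Hoxa5 and Hoxb5, Hox genes that mark hindbrain and spinal cord. They had 35 and 12 counts of Hoxa5 against 354 to 1098 in the other 6 brains. For Hoxb5 they had 30 and 19 against 291 to 909. With stress F34 and M28 both left out, a choice made after the data were seen, 14 of the 37 channel genes were lower and 0 higher. Over all 18341 genes tested in that run, 940 were lower and 741 higher.

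Of the 37 genes tested, 15 were lower in stress (edgeR quasi-likelihood test, adjusted p under 0.05 over all 17865 genes tested) and 1, Scn7a, was higher. Across all genes, 7.27% were called lower and 6.49% higher. The median log2 fold change was -0.12 over the 37 genes and 0.0015 over all genes. Values per brain are given as CPM, counts scaled to TMM-adjusted library totals, and 95% intervals are per gene without adjustment. The changes were small, since Cacng4, with the smallest called change, fell by 8.34%, and Cacna1i fell by 22.4%. For 14 of the 37 genes every stress brain lay below every control brain, against 8.22% of all genes, and for 0 of the 37 did every stress brain lie above, against 8.2% of all genes. In whole brain tissue, fewer cells of a type and less RNA per cell cannot be told apart.

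**Figure D1:**
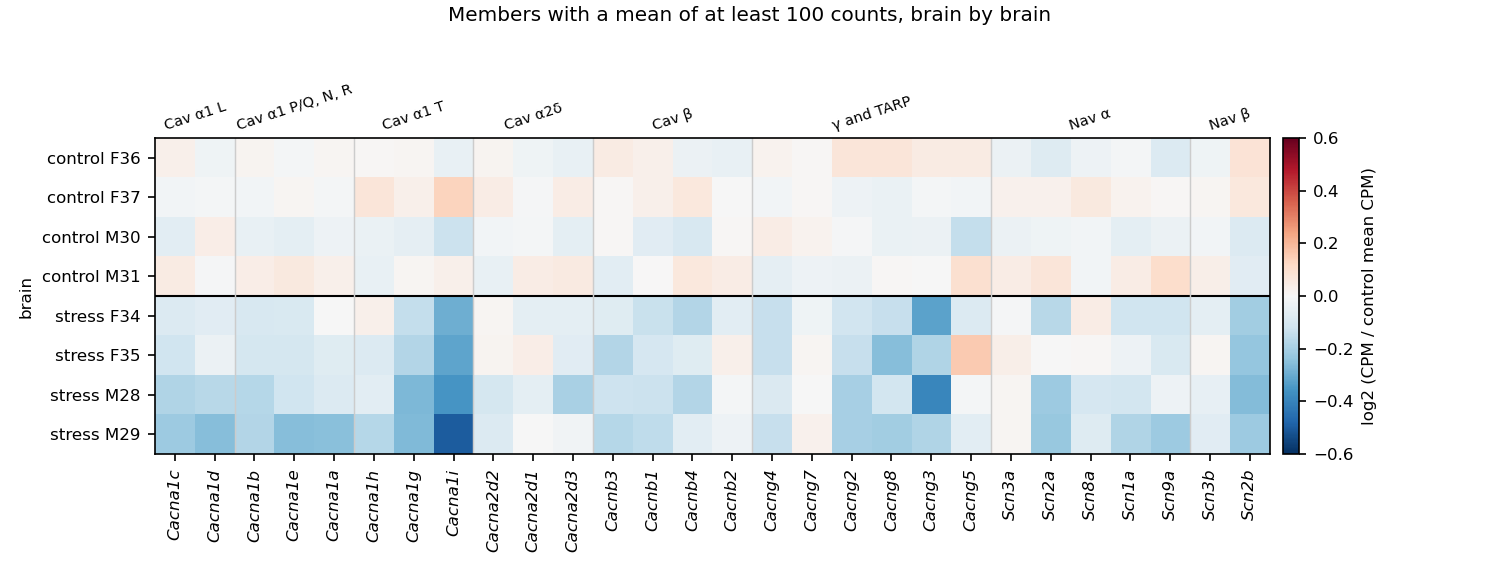
Log2 ratio of each brain's CPM (counts scaled to TMM-adjusted library totals) to the mean of the control brains, for 28 genes with a mean of at least 100 counts, with brains in rows and genes in columns by subfamily. Stress rows are blue across most calcium channel alpha, beta and type I TARP columns and deep at Cacna1i, while Cacng7, Scn3a and Cacna2d1 stay pale. Ratios run from -0.50 to 0.16.

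Markers of cell types moved between the same groups. Of 14 neuron markers 7 were lower and 1 was higher. The 7 became 3 without control F36, 2 without stress F34, 4 without stress M28 or M29, 1 without both F34 and M28 and 3 without the sex covariate, and the 1 higher became 0 without control F37, control M31, stress M28 or stress M29 and without the sex covariate. The summed level of the neuron markers ran from 10720 to 11030 TPM (counts divided by exon length and scaled to a common total) in control and from 10440 to 10770 TPM in stress. Of 14 radial glia and progenitor markers 10 were higher and 0 lower, at 2737 to 2896 TPM in control and 2798 to 3019 TPM in stress. The 6 intermediate progenitor markers, 4 of them higher, summed to 495 to 529.5 TPM in control and 539 to 582 TPM in stress without overlap. Most channel subunits are known to be made by neurons rather than by dividing progenitors, and the part of these marker shifts in the channel results was not tested.

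T-type calcium channels held the 2 genes with the lowest adjusted p of the 37. Cacna1i, on chr15:80287238-80398279 of mm10, stood at 26.8, 30.3, 25.3 and 28.3 CPM in the 4 control brains and at 22.6, 22.2, 21.6 and 19.6 CPM in the 4 stress brains. Every stress brain lay below every control brain, and the decrease passed the test (log2 fold change -0.36, SE 0.052, adjusted p = 4.05e-05). Cacna1g, the T-type channel known for thalamic burst firing, was at 129.9, 132, 124 and 130.2 CPM in control and 117, 114, 107 and 107 CPM in stress, again without overlap (log2 fold change -0.21, SE 0.029, adjusted p = 2.59e-05). Cacna1h, the third T-type gene and the one with the highest level of them per length, was at 145, 151, 140.3 and 139.7 CPM in control and 147, 136, 138 and 128 CPM in stress. Those groups overlapped, with stress F34 inside the control range, and Cacna1h was not called (log2 fold change -0.070, SE 0.032, adjusted p = 0.147, 95% interval of the log2 fold change -0.14 to -0.006). The TPM ratio of Cacna1i to Cacna1h was 0.179 to 0.200 in control and 0.151 to 0.162 in stress. This ratio and those below set genes called lower over genes not called. Their decrease follows from those calls and is not separate evidence.

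Among the channels of the P/Q, N and R types, which trigger transmitter release and drive dendritic calcium entry, 2 of 3 were lower. The share over all genes was 7.27%. Cacna1b, the N-type pore, had 153, 149, 146 and 155 CPM in control and 141, 140.0, 134 and 134 CPM in stress, and Cacna1e, the R-type pore, had 217, 221, 210.4 and 228 CPM in control and 206, 204, 201 and 184 CPM in stress. Neither gene's groups overlapped, and stress M29 was the lowest brain for both. The tests gave a log2 fold change of -0.14 for Cacna1b (adjusted p = 0.00205) and of -0.14 for Cacna1e (adjusted p = 0.00385). For Cacna1a, the P/Q-type pore, the log2 fold change was -0.10 and did not pass (adjusted p = 0.0858, 95% interval -0.18 to -0.021), and stress F34 lay among the control brains.

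The L-type pair of the brain, whose calcium current reaches signalling to the nucleus, was also lower. Cacna1c measured 94.98, 91.8, 89.0 and 96.1 CPM in control and 87.7, 85.5, 82.1 and 80.0 CPM in stress (log2 fold change -0.15, SE 0.033, adjusted p = 0.00268). Cacna1d measured 50.7, 51.3, 53.1 and 51.4 CPM in control and 49.2, 50.4, 45.9 and 43.2 CPM in stress, where both females were close to the control brains and both males were lower (log2 fold change -0.13, SE 0.041, adjusted p = 0.0326). Both genes were without overlap between the groups in CPM, but in TPM stress F35 (15.54) lay above control F36 (15.45) for Cacna1d. The Cacna1d call was lost in the DESeq2 Wald test (adjusted p = 0.0672) and in 5 of the other 12 alternatives. The retinal L-type gene Cacna1f had 7 to 18 counts per brain and the skeletal muscle gene Cacna1s had 3 to 12, the latter too few to be tested.

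Beta subunits bind the pore from the cytoplasm and bring it to the membrane. Of their 4 genes 2 were lower, against 7.27% of all genes. Cacnb3 had the highest level of them per length and was at 268, 259.9, 261 and 248 CPM in control and 246, 229, 238 and 230.2 CPM in stress (log2 fold change -0.14, SE 0.029, adjusted p = 0.00254). Cacnb1 was at 106, 106, 98.7 and 104 CPM in control and 94.4, 96.4, 94.6 and 93.0 CPM in stress (log2 fold change -0.13, SE 0.030, adjusted p = 0.00424). The highest stress brain, F34 for Cacnb3 and F35 for Cacnb1, was below the lowest control brain in each case. Cacnb4 gave a log2 fold change of -0.12 that did not pass (adjusted p = 0.0585), and 16.0% of its exon bases are shared with a gene on the opposite strand. Cacnb2 gave -0.019 (adjusted p = 0.864, 95% interval -0.13 to 0.091).

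None of the 4 alpha2delta genes, whose extracellular products raise surface channel density, was called by edgeR or by DESeq2, and 0 of the 4 reached an unadjusted p under 0.05 in edgeR, against 26.9% of all genes. Cacna2d2, with the highest level of them, was at 129, 132, 126 and 124 CPM in control and 129, 129, 119 and 121 CPM in stress (log2 fold change -0.040, SE 0.028, adjusted p = 0.386). The stress females lay within the control range and the stress males below it. Cacna2d1 gave -0.021 with a 95% interval of -0.082 to 0.040, and Cacna2d3 gave -0.085 with -0.17 to 0.003. Cacna2d4 had 8 to 18 counts per brain.

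**Figure D2:**
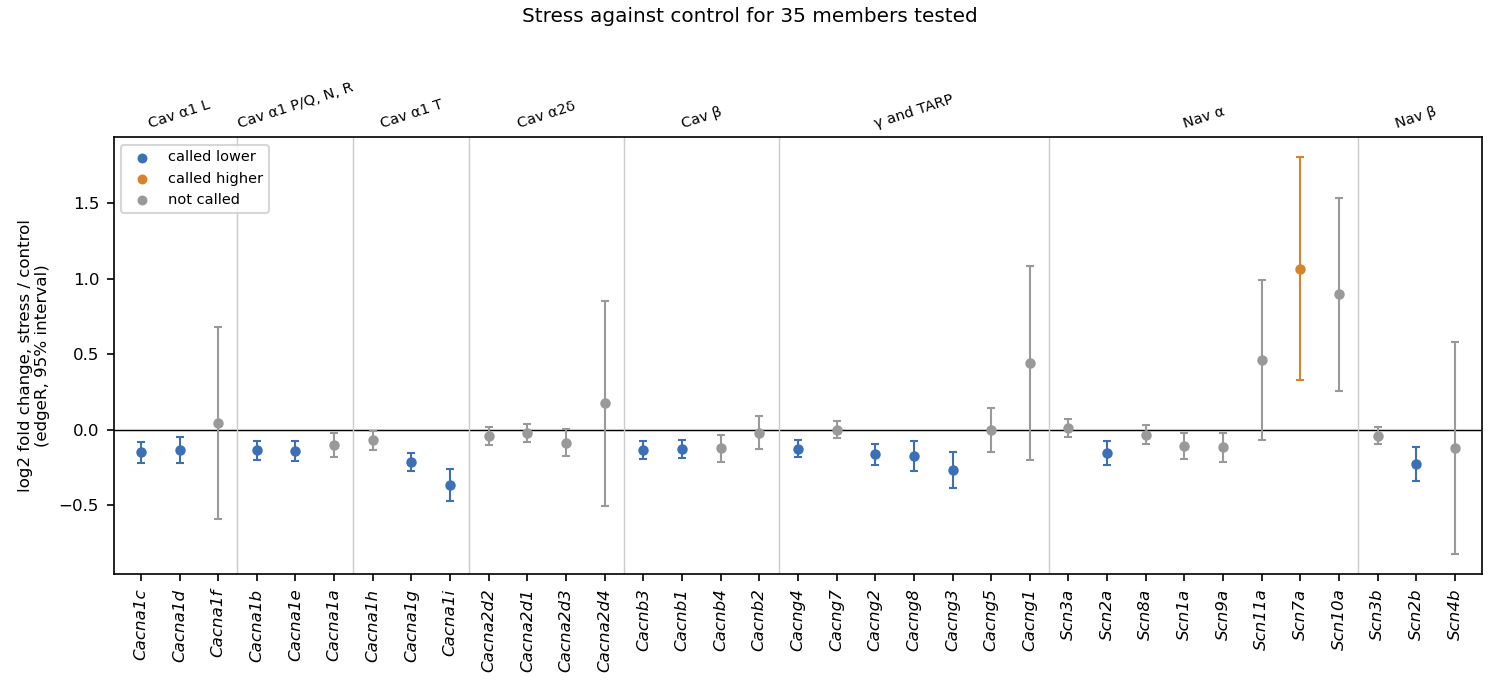
Log2 fold change of stress against control for 35 of the 37 genes tested, grouped by subfamily and ordered by level within each (points, edgeR estimates, bars, 95% intervals). The 14 genes called lower that are plotted are blue, the 1 called higher, Scn7a, is orange, and the intervals of Cacng7, Cacng5 and Scn3a are centred close to 0.

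Of the gamma genes, the type I TARPs were called lower and the type II TARPs were not. Cacng2, or stargazin, had 76.9, 71.7, 72.8 and 71.5 CPM in control and 67.5, 66.6, 63.9 and 63.7 CPM in stress (log2 fold change -0.16, SE 0.033, adjusted p = 0.00138). Cacng3 had 18.6, 17.8, 17.5 and 17.9 CPM in control and 14.3, 15.8, 13.7 and 15.8 CPM in stress, the largest proportional decrease of the family (log2 fold change -0.27, SE 0.059, adjusted p = 0.00291). Both genes were without overlap between the groups.

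Cacng4, the most abundant of the 40 genes per length, had 302, 294, 307 and 287 CPM in control and 270.1, 270.4, 279.7 and 270.1 CPM in stress (log2 fold change -0.13, SE 0.028, adjusted p = 0.00297). Cacng8 had 27.8, 25.8, 25.8 and 26.6 CPM in control and 24.1, 22.2, 24.6 and 23.0 CPM in stress (log2 fold change -0.17, SE 0.048, adjusted p = 0.0151). Every stress brain was below every control brain for both, so that all 4 type I TARPs, Cacng2, Cacng3, Cacng4 and Cacng8, were called lower, although the Cacng8 call was lost when control F36, stress F35 or stress M29 was left out (highest adjusted p = 0.0613).

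Neither type II gene was called. Cacng7 had 121, 121, 122 and 118 CPM in control and 118, 122, 120.2 and 123 CPM in stress, with overlapping groups and a 95% interval of the log2 fold change from -0.057 to 0.060. Cacng5 had 12.1, 11.6, 10.6 and 12.5 CPM in control and 11.04, 13.0, 11.6 and 11.2 CPM in stress, with a 95% interval from -0.14 to 0.15. The intervals of Cacng7 and of Cacng2, Cacng3, Cacng4 and Cacng8 did not meet, whereas that of Cacng5 overlapped those of Cacng2, Cacng4 and Cacng8, from which it was not shown to differ. The summed TPM of type I over that of type II genes was 2.22, 2.14, 2.20 and 2.15 in the control brains. It was 2.01, 1.93, 2.01 and 1.93 in the stress brains, without overlap. In control Cacng4 averaged 321.5 of the 441.5 TPM of type I, and Cacng7 190.9 of the 202.7 TPM of type II. The ratio therefore says little about Cacng5. The 2 skeletal muscle gamma genes were scarce, with 7 to 23 counts per brain for Cacng1 and 0 to 6 for Cacng6, which was not tested.

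To set genes of both types side by side, RefSeq promoter windows of 3 TARP genes (GRCm38.p6, from 250 bases before the annotated start to 10 after it) are shown here, 5′ to 3′ along the gene, with matches to short promoter motifs in capitals. In the first, from the type I gene Cacng2, the capitals mark the E-box CAGCTG. In the other 2, from type II genes, they mark the GC box GGGCGG and the CCAAT box, on either strand.
Cacng2 (chr15:78119271-78119530, minus strand): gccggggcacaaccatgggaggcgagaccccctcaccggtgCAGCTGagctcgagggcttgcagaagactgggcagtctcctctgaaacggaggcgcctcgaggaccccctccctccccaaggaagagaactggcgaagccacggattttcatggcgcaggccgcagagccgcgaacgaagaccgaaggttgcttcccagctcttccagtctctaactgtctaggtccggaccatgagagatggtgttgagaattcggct
Cacng5 (chr11:107915046-107915305, minus strand): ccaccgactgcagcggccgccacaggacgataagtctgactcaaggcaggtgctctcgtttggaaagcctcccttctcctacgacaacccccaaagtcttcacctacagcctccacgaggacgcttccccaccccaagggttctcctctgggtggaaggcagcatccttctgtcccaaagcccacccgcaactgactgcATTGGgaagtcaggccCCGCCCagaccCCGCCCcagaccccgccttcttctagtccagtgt
Cacng7 (chr7:3332575-3332834, plus strand): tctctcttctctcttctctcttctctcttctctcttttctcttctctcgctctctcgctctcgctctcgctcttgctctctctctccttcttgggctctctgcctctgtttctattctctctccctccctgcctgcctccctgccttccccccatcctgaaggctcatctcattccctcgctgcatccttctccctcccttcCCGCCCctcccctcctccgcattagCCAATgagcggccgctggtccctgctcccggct

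CAGCTG began 209 bases before the RefSeq start of Cacng2, and it was absent from the Cacng5 and Cacng7 windows. The Cacng2 gene as counted begins at 78120028 on the minus strand. The whole Cacng2 window, with its CAGCTG, therefore lies inside that gene and not before it. GGGCGG in its reverse form began 35 and 24 bases before the Cacng5 start and 48 before the Cacng7 start, and CCAAT, in either direction, 51 and 23 bases before them. Cacng5 has 2 windows in the table, and the one with more matches is printed, since the other held 0 of these motifs. The listed start of Cacng7 lies outside the gene as annotated in GENCODE vM21. These letters are common. Over all 32851 RefSeq windows of 300 bases, 16.3% held CAGCTG, 35.7% GGGCGG, 37.4% CCAAT and 13.6% TATAAA on either strand, and over the 41 windows of the 30 channel genes with one, 31.7%, 39.0%, 24.4% and 4.88% did. The CRE TGACGTCA was in 1.79% of all windows and in 0 of the 41. The RE1 element bound by REST, and its left arm alone, TTCAGCACC, were also in 0 of the 41, against 0.012% and 0.371% of all windows. At shares this low, 41 windows cannot show whether the channel genes lack these elements. The window listed for Cacng8 begins at the first base of a later exon and is not shown. With 1 type I gene shown, the windows say nothing of the types, and a match of letters is a description, not a binding site.

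Of the 9 sodium channel alpha subunits tested, 1 was lower and 1 higher, against 7.27% and 6.49% of all genes. Scn2a, the main pore of early axon initial segments, was at 106, 113, 109 and 117 CPM in control and 99.3, 111, 95.7 and 95.1 CPM in stress (log2 fold change -0.15, SE 0.040, adjusted p = 0.0105). Stress F35 lay inside the control range while the other 3 stress brains lay below it, and the call was lost when control M31, stress M28 or stress M29 was left out (highest adjusted p = 0.0587). Scn3a, the alpha subunit most typical of the fetal brain and the most abundant here, was at 180.4, 188, 180.3 and 190.5 CPM in control and 184, 189.7, 186 and 186 CPM in stress. Its groups overlapped and its 95% interval ran from -0.045 to 0.071. The TPM ratio of Scn2a to Scn3a was 0.573, 0.590, 0.594 and 0.602 in the control brains and 0.528, 0.574, 0.503 and 0.499 in the stress brains, and only stress F35 reached the control range.

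The other neuronal alpha subunits were not called. The log2 fold change was -0.11 for Scn1a, the pore of fast-spiking interneurons (adjusted p = 0.0797). It was -0.12 for Scn9a, best known from sensory and sympathetic neurons (adjusted p = 0.102), and -0.032 for Scn8a, the main pore of the mature node and axon initial segment (adjusted p = 0.564). The skeletal muscle gene Scn4a had 0 to 4 counts per brain and was not tested. The groups overlapped for Scn1a, Scn9a and Scn8a.

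Among the sodium channel beta subunits, which sit beside the pore in the membrane, Scn2b was called lower. It was at 19.0, 18.7, 16.9 and 17.1 CPM in control and 15.499, 15.2, 15.0 and 15.4 CPM in stress (log2 fold change -0.23, SE 0.054, adjusted p = 0.00548). The groups did not overlap, and the gene is known to rise as axons and nodes mature.

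Scn3b, the most abundant beta gene, was at 262, 269, 263 and 273 CPM in control and 256, 269, 258 and 255 CPM in stress. Its groups overlapped and it was not called (log2 fold change -0.040, SE 0.027, adjusted p = 0.371, 95% interval -0.096 to 0.016). The TPM ratio of Scn2b to Scn3b was 0.0736 to 0.0849 in control and 0.0666 to 0.0711 in stress, without overlap. Scn4b had 5 to 14 counts per brain.

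**Figure D3:**
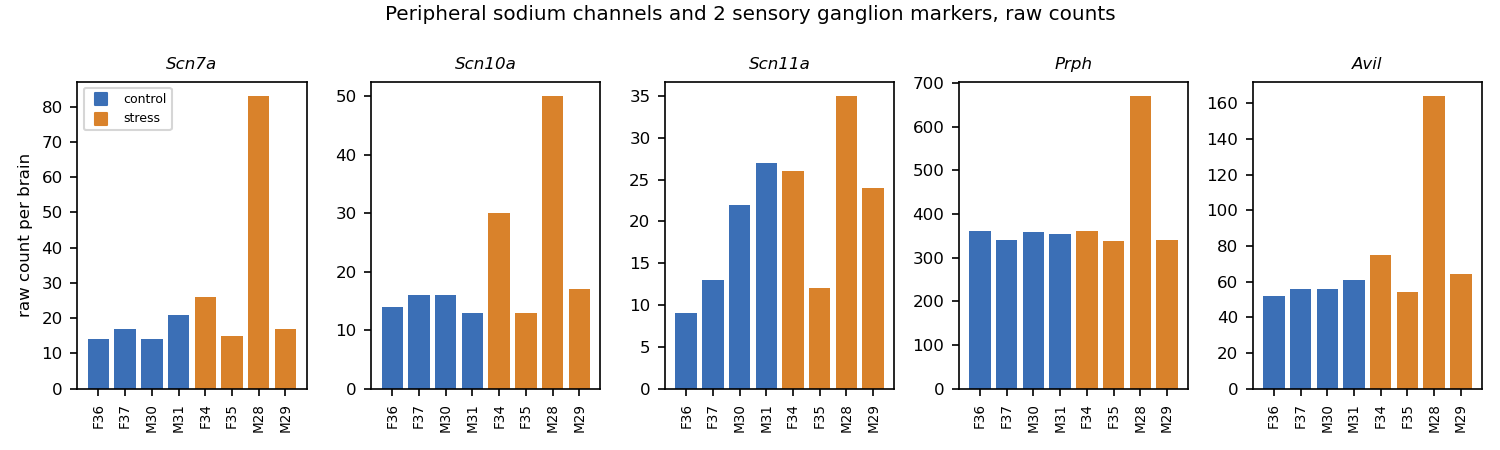
Raw counts in each brain for 3 sodium channel genes of the peripheral nervous system and 2 sensory ganglion markers (bars, control blue, stress orange, each panel with its own axis from 0). Stress M28 is the highest bar in all 5 panels.

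The 1 gene called higher had 1 stress brain far above the other 7. Scn7a, an atypical alpha subunit of ganglia, glia and salt-sensing cells, had 14, 17, 14 and 21 raw counts in the control brains and 26, 15, 83 and 17 in the stress brains (log2 fold change 1.07, SE 0.36, adjusted p = 0.0471). The call was lost in 8 of 13 alternatives, among them leaving out any 1 control brain, stress F34 or stress M28, and leaving out the sex covariate. The DESeq2 Wald test gave an adjusted p of 0.36, and without stress M28 edgeR gave an adjusted p of 0.655 and a log2 fold change of 0.25. Scn10a, a pore of nociceptive neurons, had 13 to 16 counts in control and 30, 13, 50 and 17 in stress (log2 fold change 0.90, SE 0.31, adjusted p = 0.0538), and Scn11a, another such pore, had 9 to 27 counts in control and 12 to 35 in stress (log2 fold change 0.46, SE 0.26, adjusted p = 0.257).

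Stress M28 also had the highest count for 6 of 10 sensory ganglion markers. Of the others Trpv1 tied with stress M29 at 12 counts, and Pou4f1 (844 counts against up to 916), Calca (38 against up to 59) and Tlx3 (61 against up to 96) were higher in another brain. M28 had 670 counts of Prph against 339 to 361 in the other 7 brains and 164 of Avil against 52 to 75, examples chosen after their values were seen. The 10 sensory ganglion markers, with 0 of them absent from every brain, summed to 108 to 119 TPM in control and 113 to 145 TPM in stress. The 7 meninges and fibroblast markers summed to 19.0 to 23.9 TPM in control and to 19.0 to 37.6 TPM in stress, with the highest sum in M28. The part of this brain's makeup in the 3 channel genes was not tested. Without M28, 13 of the 37 genes were lower and 0 higher. Over all 18027 genes tested in that run, 1084 were lower and 950 higher.

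Levels per length set the order of the subunits. Cacng4 averaged 308 TPM over the 8 brains and Cacnb3 238 TPM, and all 8 values of each lay above those of the next gene. Cacng7 (191 TPM) and Scn3b (186 TPM) followed with overlapping ranges, and then Cacnb1 (84.5 TPM). A broad middle group overlapped neighbour by neighbour, from Cacna2d2 at 61.2 TPM through Scn3a (57.6), Cacna1b (56.0), Cacna1h (55.7), Cacng2 (48.6), Cacna2d1 (48.2) and Cacna1g (45.8) to Cacng8 (41.2 TPM).

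Scn2a (32.1 TPM) and Cacna1e (32.0 TPM) came next, and a run of 13 genes from Cacng3 (22.9 TPM) to Cacna1i (9.63 TPM) did the same, with Cacna1c, the highest L-type gene, at 16.1 TPM. Below these stood Cacnb2 (4.88 TPM), and 10 scarce genes averaged 0.0270 to 1.62 TPM. These 10 are the muscle, retinal and peripheral genes Cacna1f, Cacna1s, Cacng1, Cacng6, Scn4a, Scn7a, Scn10a and Scn11a with Cacna2d4 and Scn4b. In control the gamma genes made up 36.5% ± 0.672 (SD, n = 4) of the summed TPM of all 40 genes, the beta subunits 20.6% ± 0.328, the sodium beta subunits 12.5% ± 0.248 and the sodium alpha subunits 8.05% ± 0.294.

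**Figure D4:**
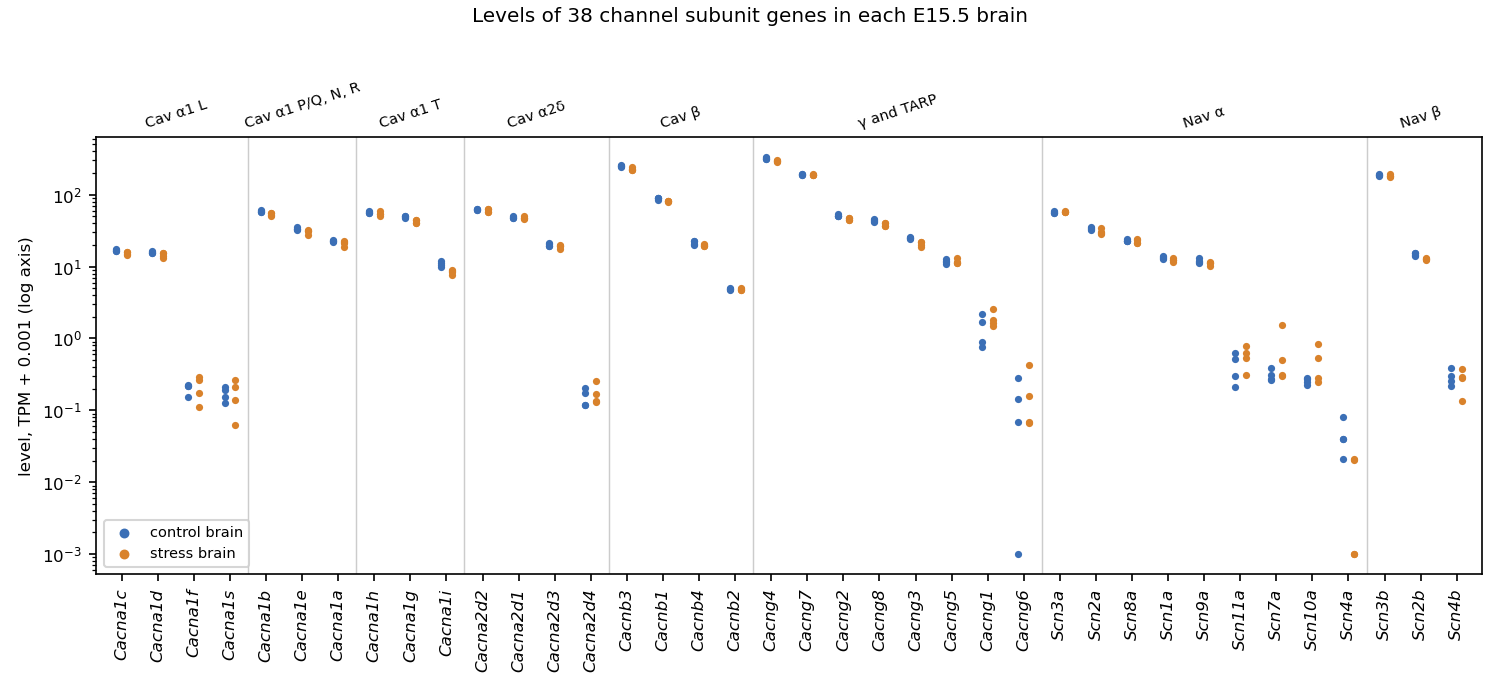
Level of 38 of the 40 genes in TPM plus 0.001 on a log axis, by subfamily, with 1 point per brain (control blue, stress orange). Levels span from under 0.1 TPM for Scn4a to above 280 TPM for Cacng4, and the group shifts are small against the differences between genes.

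Summed over all 40 genes the level was 1774, 1771, 1760.0 and 1774 TPM in control and 1686, 1680.0, 1645 and 1593 TPM in stress, and every stress brain was below every control brain. The calcium channel sum ran from 1397 to 1419 in control and 1261 to 1338 in stress TPM without overlap. That sum includes the gamma genes, TARPs among them, which averaged 645.6 of its 1406 TPM in control. For the sodium channel sum, 354 to 376 in control and 332 to 361 in stress TPM, stress F35 lay inside the control range.

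Genes that lie next to each other could differ in their call. Cacng7 (chr7:3332955-3368221) and Cacng8 (chr7:3390683-3415648) are neighbours with Cacng6 on chromosome 7, and Cacng4 (chr11:107732357-107794557) and Cacng5 (chr11:107874605-107915055) are neighbours with Cacng1 on chromosome 11, and 1 gene of each pair was called. The 95% intervals of the log2 fold change of Cacng7 and Cacng8 did not meet, while those of Cacng4, from -0.18 to -0.069, and Cacng5, from -0.14 to 0.15, overlapped. On chromosome 2, Scn3a (chr2:65457118-65567627) and Scn2a (chr2:65620771-65767447) lie in a row with Scn1a, Scn9a and Scn7a. Reads of these alike genes could be confused at their most similar exons, since 1.03% of the 100-base stretches of Scn2a transcripts and 2.22% of those of Scn3a also occur in transcripts of another gene. For the 4 type I TARPs and the 3 T-type genes 0 such stretches were shared with another of the 40 genes. Among the 16 genes called, the exon bases shared with another gene came to 5.86% for Cacng2, 4.67% for Cacna1d, 3.88% for Cacng8, 1.77% for Cacnb1 and 0% for the other 12, and reads there cannot be assigned to 1 gene.

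Both sexes were then examined. In females 6 of the 37 genes were lower (Cacna1g, Cacna1i, Cacnb1, Cacnb3, Cacng4 and Scn2b) against 2.26% of all genes, and 0 were higher against 1.66%. In males 9 were lower (among them Cacna1b, Cacna1c, Cacna1d, Cacna1e, Cacna1g, Cacna1i, Cacng2 and Scn2a) against 3.83%, and 0 were higher against 2.96%. With 2 brains per group these counts were unstable, since the 6 became 1, 0, 2 or 1 without control F36, control F37, stress F34 or stress F35, and the 9 became 2 or 1 without control M31 or stress M29.

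The lists differ, but a difference between the sexes was not shown. The interaction of sex and condition called 0 of the 37 genes in edgeR and 0 in DESeq2, against 0.0056% of all genes in edgeR. At an unadjusted p under 0.05 it named 3 in edgeR (6.31% of all genes) and 2 in DESeq2 (435 of 17865 genes). Scn2a had a log2 fold change of -0.059 in females and -0.25 in males, and the interval of their difference was -0.34 to -0.044 (adjusted p = 0.662). Cacna1d had -0.035 and -0.23, with an interval of -0.34 to -0.044 (adjusted p = 0.662). The third gene was the scarce Cacna2d4.

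**Figure D5:**
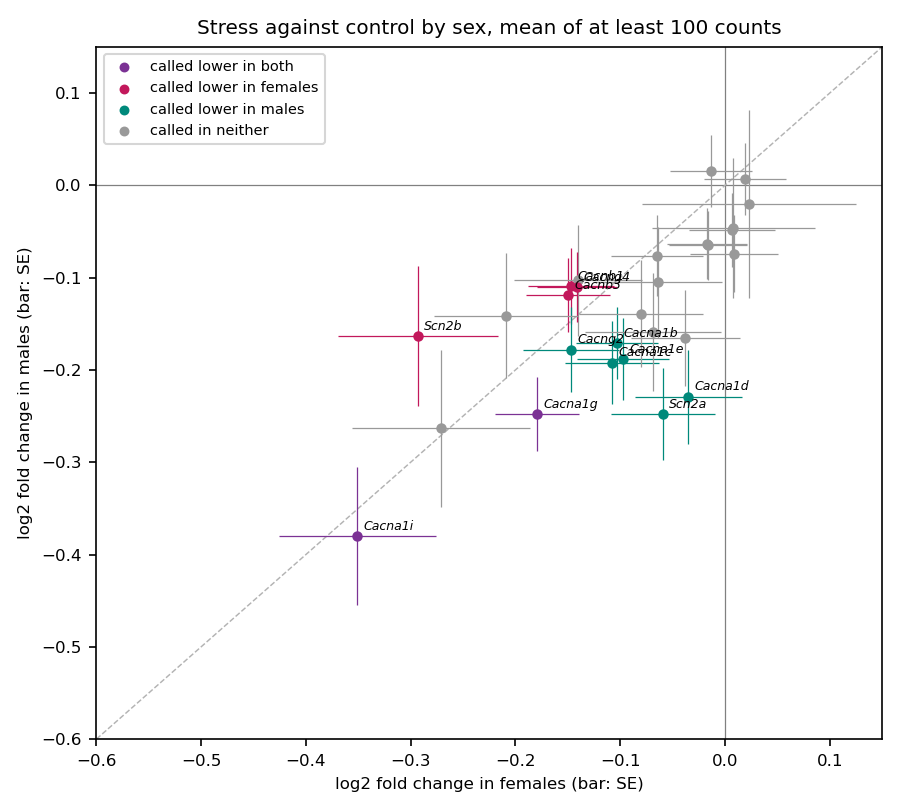
Log2 fold change of stress against control in females (horizontal) and males (vertical) for 28 genes with a mean of at least 100 counts, with bars of 1 SE and a dashed line of equality. Cacna1g and Cacna1i were called lower in both sexes. Scn2a and Cacna1d sit below the line, at a larger decrease in males, but the difference did not pass.

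No difference between females and males was called among the 37 genes, with 0 in edgeR against 0.0896% of all genes and 0 in DESeq2. At an unadjusted p under 0.05 there were 6 in edgeR, against 5.91% of all genes, and 4 in DESeq2, against 513 of 17865 genes. Cacna2d2 was 5.99% higher in females (unadjusted p = 0.00582, adjusted p = 0.709), and Scn11a was lower in females (log2 fold change -0.78, unadjusted p = 0.00583, adjusted p = 0.709).

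Genes listed as working with the channels were lower in part. Of the 75 tested in 5 such lists 27 were called lower and 0 higher, against 7.27% and 6.49% of all genes. The 14 neuron markers, 7 of them lower, had a median log2 fold change of -0.078. Whether the partners moved apart from neuronal genes at large was not tested. Of 18 partners of sodium channels 8 were lower, or 5 without control F37, control M31 or stress M29, at a median log2 fold change of -0.079, led by Cntnap1 -0.42 and Cntn1 -0.28, the paranodal partners of axon and myelin, and Sptbn4 -0.23, the spectrin of nodes and initial segments. Of 21 genes listed as partners or modulators of calcium channels 7 were lower (median -0.091), among them Stac2 -0.25 and Rimbp2 -0.20, which links channels to release sites. Caly, also in that list, gave -0.23, and its link to these channels was not tested. Of 11 AMPA receptor genes and their non-TARP auxiliary subunits 4 were lower (median -0.087), led by Shisa9 -0.32, Cnih3 -0.27 and Shisa7 -0.18, while the receptor subunits Gria1, Gria2, Gria3 and Gria4 gave -0.086, -0.070, -0.029 and -0.087 and did not pass.

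Of 19 genes of calcium release, entry and extrusion 6 were lower (median -0.12), led by Atp2b2 -0.21, a plasma membrane calcium pump, Itpr1 -0.18, the receptor that releases stored calcium, and Orai2 -0.17, a store-operated channel. Of 6 genes of the sodium leak and endolysosomal channels 2 were lower (median -0.035), Unc80 -0.23 and Unc79 -0.10, both accessory to the leak channel, or 1 in the DESeq2 Wald test and without control M30, control M31, stress M28 or stress M29, while Nalcn, the leak pore itself, gave -0.11 and did not pass (adjusted p = 0.0902).

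Other tissue and region markers were read for the same brains. Of 7 forebrain genes 4 were higher, led by Emx1 0.25, Emx2 0.22 and Lhx2 0.14, and their sum was 1125 to 1197 TPM in control and 1225 to 1291 TPM in stress. Of 12 midbrain and hindbrain genes 0 were called, with sums of 145 to 246 TPM in control and 97.2 to 254 TPM in stress. Without stress F35 3 of them were lower and 1 higher, and without the filter on low counts 3 were lower. Glutamatergic markers had 1 of 7 lower and 1 higher (Tbr1 0.11), and GABAergic markers had 1 of 8 higher (Dlx2 0.13). Of 5 oligodendrocyte lineage markers 2 were lower (Pdgfra -0.31 and Olig1 -0.26), and of 8 endothelial and mural markers 3 were lower, led by Kdr -0.29, Tek -0.23 and Cldn5 -0.13.

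Microglia markers had 0 of 7 called. Erythroid markers had 1 of 8 lower (Hbb-bs -0.14) and 2 higher (Hba-x 1.09 and Hbb-y 0.84), choroid plexus 1 of 5 higher (Ttr 1.91, with sums of 4.09 to 26.7 TPM in control and 4.70 to 102.4 TPM in stress), meninges and fibroblast 3 of 6 higher, led by Col1a1 1.59, Col3a1 1.04 and Col1a2 0.79, and 1 lower (Pdgfra), sensory ganglion 2 of 9 higher (Avil 0.66 and Prdm12 0.36), and retina 1 of 5 higher (Otx2 0.18, which is also a midbrain gene). Of the muscle, heart and pituitary markers 0 of 6, 0 of 3 and 0 of 2 were called, and 4 of 11, 3 of 7 and 5 of 7 had under 10 counts in every brain, with 2 pituitary markers at 0 throughout. Several of these counts moved with 1 brain or the tool. The 3 endothelial and mural genes became 1 in the DESeq2 Wald test and without control F37, control M31 or stress M28. The 3 higher of the meninges became 0 in DESeq2, 5 without control F36 and 1 without stress M28. The 2 of the sensory ganglia became 1 in DESeq2 and without control M30, control M31, stress F34 or stress M28. The single calls became 0 without control F37 or stress F34 for the erythroid gene lower and for the choroid plexus, and without any brain but control M30 and stress F35 for the GABAergic list, while the 1 glutamatergic gene higher became 2 without stress F34. With both F34 and M28 left out, the forebrain genes had 2 higher and the sensory ganglion and meninges lists 0. The part of these markers in the channel results was not tested.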

How the data were processed

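The authors deposited raw counts, made per the file headers and the study's methods by trimming paired reads, aligning them to mm10 with TopHat2 v2.1.1 and counting read pairs over GENCODE vM20 exons with featureCounts v1.6.3, without a strand option, so reads of overlapping genes on opposite strands are not separated. Symbols and gene types were taken from GENCODE vM21, which matched 54723 of 54752 gene IDs. Genes were tested with edgeR v4.0.16 (quasi-likelihood F-test, TMM normalization, filterByExpr at a minimum count of 10, model of sex and condition, Benjamini-Hochberg over 17865 genes). Contrasts within each sex and the interaction came from a model of 4 groups. The procedure was tested on simulated counts. TPM were computed from counts and exon length and were not tested. Alternatives were the DESeq2 v1.42.0 Wald test, DESeq2 size factors, upper-quartile normalization, no filter, no sex covariate, each sex alone, RPKM in place of TPM for levels, and each brain left out. The channel genes and the 23 gene lists were chosen with earlier results of these data known. Values in every brain are given for each gene called and for the most abundant gene of each subfamily, and up to 3 called genes with the largest change are named per list. Some genes and a promoter sequence are not reported here, although the genes remain in the counts, sums and tests. The study's batch term was not used, because no batch is named for these brains.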

Additional observations from a re-analysis of the deposited data

Results flagged for a closer look

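In groups of 4 brains, a brain was singled out where its gap to the nearest other brain as a share of the group's range exceeded Dixon's 95% critical value, a rule that chance meets in about 1 of 20 groups, and 11 of 160 groups met it. Among the channel genes, Scn7a reached 2.89 CPM in stress M28, above the other stress brains, and Cacng4 reached 279.7 CPM in the same brain, the highest stress value but below every control brain. Scn8a was highest among control brains in F37 (97.5 CPM), and Cacna1f was lowest among them in M31 (0.352 CPM), on few counts. The summed gamma genes were lowest among stress brains in M29 (592.8 TPM), and the summed type II TARPs were highest among them in F35 (207 TPM).

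For the other lists, control F36 stood highest in its group for the AMPA receptor list (1752 TPM) and for meninges and fibroblast markers (23.9 TPM), control M30 for intermediate progenitor (529.5 TPM) and GABAergic markers (610.3 TPM), and stress F35 for striated muscle markers (12.4 TPM).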

How the results depend on the processing

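The count of channel genes lower in stress stayed at 13 to 16 in every alternative run. The count of 1 higher became 0 in the DESeq2 Wald test, 2 without the filter on low counts, 0 without the sex covariate and 0 to 2 as each brain was left out. In females the 6 lower became 0 to 6 with 1 brain left out. In males the 9 lower became 1 to 12 and the 0 higher 0 to 2 with 1 brain left out, and the higher count was 2 without the filter and 1 with males fitted alone. In the 5 partner lists the 0 called higher became 0 to 1. Over all genes, 1160 called higher became 748 in the DESeq2 Wald test, and 1160 higher and 1298 lower became 736 and 854 without stress M29. In the DESeq2 Wald test the 403 lower and 297 higher of females became 175 and 117, and the 685 and 529 of males became 317 and 186. With 1 brain left out they moved further, in females to 39 and 22 without control F36, 80 and 49 without control F37 and 157 and 89 without stress F34, and in males to 128 and 79 without control M31, 122 and 87 without stress M29 and 472 and 342 without stress M28. Leaving out both stress F34 and M28, chosen after seeing the data, took the 1 channel gene higher to 0 and the 1160 genes higher to 741. In these cases the cause was not tested.

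Genes near 0 changed sign, none of them called. Cacng5 gave -0.004 and Cacng7 -0.004 without the filter. With 1 brain left out, Cacng5 reached -0.053 to 0.055, Cacng7 -0.011 to 0.012, Scn3a -0.003 to 0.031, Cacna1f -0.16 to 0.32, Cacna2d4 -0.12 to 0.38 and Scn4b -0.33 to 0.080. The summed level in RPKM in place of TPM moved the log2 ratio of stress to control by less than the spread of the control brains. No paired analysis was possible, because the control and stress brains came from different fetuses of different litters. Depth limits the scarce genes, since the 95% interval of the log2 fold change ran from -0.82 to 0.58 for Scn4b and from -0.51 to 0.85 for Cacna2d4.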
